A study of Mus musculus with 6 samples.

Results

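Transcripts of the AP-1 and small MAF factors were examined in long-term hematopoietic stem cells, the bone marrow cells that maintain blood formation. The genes were taken by symbol from the table of read counts per gene. They are the FOS-type genes Fos, Fosb and Fosl2, the JUN-type genes Jun, Junb and Jund, the stress-induced factor gene Atf3, and the small MAF genes Maff, Mafk and Mafg. Of these 10 genes, 9 had counts among the 11779 genes of the table, and all 9 passed the filter on low counts. Mafg was not analysed here.

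The cells came from female mice aged 8 weeks and were sorted as Lin-Sca1+c-Kit+CD48-CD150+. The HET group (3 libraries) had the genotype c-Mycfl/+Mx1Cre, with Cre recombinase under the interferon-responsive Mx1 promoter, which is not restricted to stem cells. The WT group (3 libraries) was c-Mycfl/+ without Cre, so both groups carried 1 floxed Myc allele. The allele was deleted with poly(I:C), a synthetic double-stranded RNA that raises interferon, injected 3 times at 6 mg/kg. WT mice lacked Cre, so an effect of Cre itself and an effect of the deletion cannot be told apart. The labels do not state whether WT mice received poly(I:C). Where they did not, an effect of the injections cannot be told apart from these either. The titles name the HET libraries KO, although their genotype label is heterozygous. Libraries were numbered 1, 3 and 4 in both groups, and no label states that each came from a separate animal, so the p-values measure the spread between these libraries.

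AP-1 is a family of dimers built from basic leucine zipper proteins. JUN proteins pair with each other or with FOS proteins, whereas FOS proteins need a JUN partner to bind DNA stably. Most of these genes are immediate early genes, which are transcribed within minutes of growth factor, cytokine or stress signals and whose transcripts decay fast. Small MAF proteins carry a zipper but no activation domain. They repress as homodimers and activate or repress as partners of NF-E2, NRF or BACH proteins at antioxidant and MAF recognition elements.

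Total counts ran from 4249490 to 9886223 per library, with HET 1 the deepest. Myc, the targeted gene, measured 294, 387 and 372 CPM in HET 1, 3 and 4, against 447, 427 and 542 CPM in WT 1, 3 and 4, where CPM is a gene's count as a rate on the TMM-scaled library size. These counts cover the whole gene and do not measure the deletion. The sort's positive markers were present in every library. Kit ranged from 1145 to 1258 CPM in HET and from 1091 to 1229 CPM in WT, and Slamf1, which encodes CD150, from 57.0 to 84.0 CPM in HET and from 60.9 to 80.3 CPM in WT. Cd48, whose protein was sorted against, was low, with 3.67 to 8.96 CPM in HET and 1.67 to 3.25 CPM in WT (edgeR adjusted p = 0.849). Of 58 listed markers of other marrow cells 34 passed the filter on low counts and 0 passed the test, and values of the marker lists are given after the results.

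Upstream sequence is shown for Junb and Maff, which passed the test, and for Fos and Jun, which did not, because a shared DNA element is the feature of these genes that the expression values did not use. Each line gives the 250 bases before a RefSeq transcript start on GRCm38.p6, written 5′ to 3′ on the gene's strand. Junb is at chr8:84978749-84978998 (minus strand), Maff at chr15:79347270-79347519 (plus), Fos at chr12:85473640-85473889 (plus) and Jun at chr4:95052223-95052472 (minus). None of these windows overlapped an exon annotated in GENCODE M21. Maff has 3 annotated starts, and the one shown held the most motif matches. Capitals mark motif matches on either strand. The motifs were TGACG, the half-site of CREB and ATF sites, and TGANNTCA of the same family. The outer bases of TGANNTCA are palindromic, and its middle bases (N) can be any, so a match need not be a palindrome. The others were TGANTCA, the classical AP-1 site, which does not contain TGACG, and CACGTG, the E-box bound by MYC and other factors.
Junb: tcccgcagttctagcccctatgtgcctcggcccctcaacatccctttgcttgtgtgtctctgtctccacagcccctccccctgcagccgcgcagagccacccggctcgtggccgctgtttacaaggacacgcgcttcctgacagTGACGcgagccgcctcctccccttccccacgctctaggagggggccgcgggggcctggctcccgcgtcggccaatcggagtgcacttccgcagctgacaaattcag
Maff: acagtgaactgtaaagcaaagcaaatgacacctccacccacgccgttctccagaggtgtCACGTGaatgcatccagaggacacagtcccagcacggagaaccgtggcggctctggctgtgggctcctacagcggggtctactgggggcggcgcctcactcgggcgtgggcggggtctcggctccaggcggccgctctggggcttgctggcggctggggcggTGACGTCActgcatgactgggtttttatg
Fos: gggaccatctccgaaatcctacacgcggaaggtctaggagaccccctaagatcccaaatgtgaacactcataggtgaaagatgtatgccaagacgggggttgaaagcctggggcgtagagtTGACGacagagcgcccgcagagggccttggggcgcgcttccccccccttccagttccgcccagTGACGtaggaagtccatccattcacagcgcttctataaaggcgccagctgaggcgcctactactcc
Jun: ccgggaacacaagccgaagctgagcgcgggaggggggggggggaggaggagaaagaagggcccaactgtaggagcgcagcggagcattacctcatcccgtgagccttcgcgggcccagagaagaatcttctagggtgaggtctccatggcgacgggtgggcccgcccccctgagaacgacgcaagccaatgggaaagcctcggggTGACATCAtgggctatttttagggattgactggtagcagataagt

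With the base before the start counted as -1, Junb held TGACG at -106 to -102. Fos held it at 2 places, -129 to -125 and -66 to -62. In Jun the match was TGACATCA at -45 to -38. Maff held the full palindrome TGACGTCA at -29 to -22, which contains TGACG on both strands and also matches TGANNTCA, and CACGTG at -191 to -186. Over the 12 windows of the 10 genes, TGACG was found in 8, TGANNTCA in 4 and CACGTG in 3, and TGANTCA in 0. The Jund window, which held a TGANNTCA match, ended at base 70697738, whereas Jund in GENCODE M21 starts at base 70698949. That window is therefore not next to the start of the annotated gene. Among all 32851 windows of the same length, 17.8% held TGACG, 11.9% TGANNTCA, 6.02% CACGTG and 6.75% TGANTCA. The 3 windows with CACGTG belonged to Maff, Mafk and Mafg. The window of Fosl2, the other gene that passed, lies wholly in an annotated exon, so it is not shown, and it held 0 matches to any of the 4 motifs. A match describes these letters and does not show that a factor was bound.

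Of the 9 genes tested, 3 fell in HET and 0 rose, at an adjusted p of 0.05 in edgeR's quasi-likelihood test with Benjamini-Hochberg adjustment over all 10869 genes tested. Over all genes 0.221% fell by this rule, and 0.0368% rose. The genes that fell came from different branches: Junb of the JUN type, Fosl2 of the FOS type and Maff of the small MAFs. The other 6, Fos, Fosb, Jun, Jund, Atf3 and Mafk, did not pass. Over all genes 0.258% passed in either direction. Log2 fold changes were negative for 7 of the 9 and for 49.3% of all genes, with medians of -0.62 for the 9 and 0.00 for all genes. An unadjusted p under 0.05 with a lower HET level was reached by 5 of the 9 and by 3.19% of all genes. The 3 HET values were all below the 3 WT values in 4 of the 9 and in 5.64% of all genes, and all above them in 0 of the 9 and in 4.69% of all genes. In sorted bulk cells a lower level can come from fewer cells with the transcript or from less of it per cell, and these cannot be told apart.

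**Figure D1:**
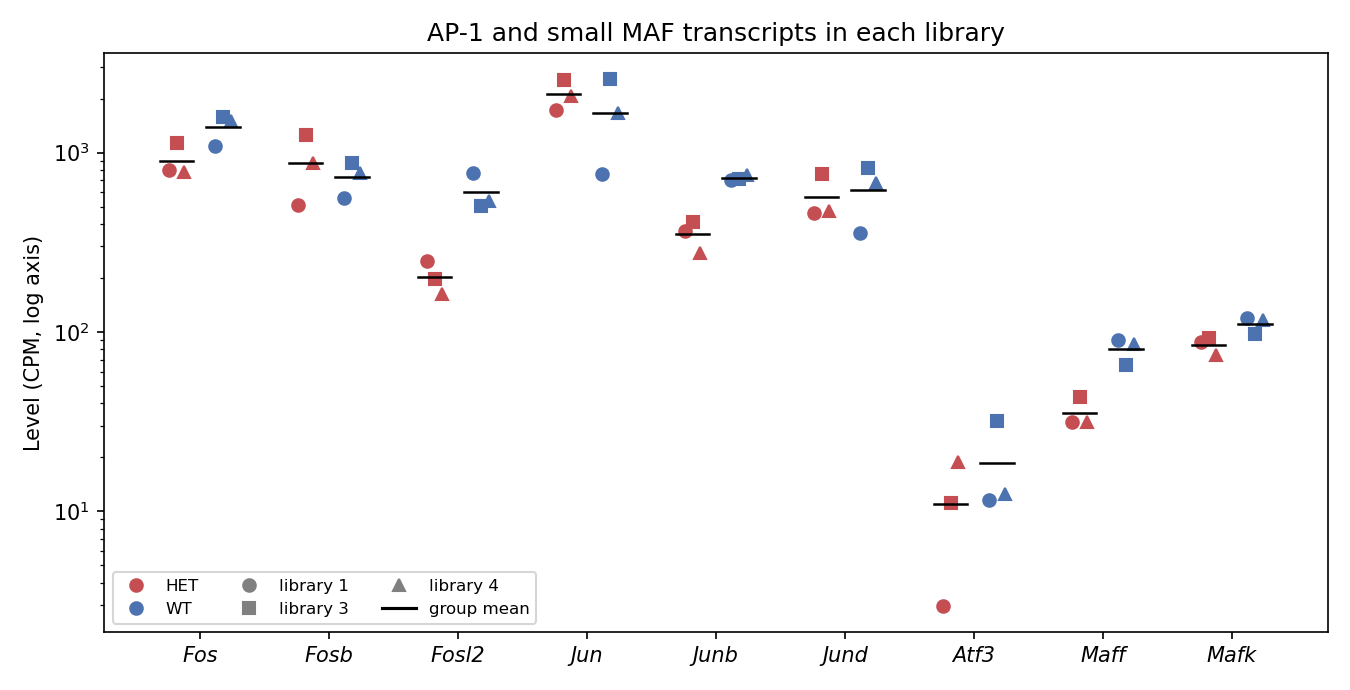
Level of 9 AP-1 and small MAF transcripts in each library, in CPM on a log axis, with HET left of WT for each gene, a symbol for each library number and a bar at the group mean. The 3 HET points lie below the 3 WT points for Fosl2, Junb, Maff and Mafk, and overlap them for the other 5 genes.

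Among the JUN-type genes, Junb separated the groups while Jun and Jund did not. Junb (ENSMUSG00000052837; GRCm38 chromosome 8, 84974484 to 84978718, minus strand) encodes a JUN protein that often opposes c-JUN in proliferation. In mice its loss from blood stem cells is known to cause a myeloproliferative disease. It measured 367, 413 and 277 CPM in HET 1, 3 and 4, against 704, 714 and 755 CPM in WT 1, 3 and 4. The WT libraries lay within 1.07-fold of each other, and the highest HET library was well below the lowest of them. Junb in HET was 48.6% of WT (95% interval 40.7% to 58.2%), or -1.04 ± 0.12 in log2 (SE, n = 3 each; edgeR adjusted p = 1.948e-04), the third smallest p among all genes.

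Jun (ENSMUSG00000052684; chromosome 4, 95049034 to 95052222, minus strand) encodes c-JUN, the prototype AP-1 activator, from a single exon. It had the highest mean of the family in both groups in CPM, and its mean level was at percentile 99.8 of all genes tested. It measured 1723, 2558 and 2072 CPM in HET 1, 3 and 4, against 761, 2566 and 1661 CPM in WT 1, 3 and 4. The HET libraries lay inside the WT range, which spanned 3.37-fold because WT 1 was low. The log2 fold change was 0.35 ± 0.51 (SE; edgeR adjusted p = 0.995), with a 95% interval from -1.03 to 1.73, which is too wide to tell a 1.5-fold rise or fall from no difference. Without WT 1 the estimate was 0.00, and without WT 3 it was 0.81.

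Jund (ENSMUSG00000071076; chromosome 8, 70698949 to 70700616, plus strand), the most constitutively expressed JUN gene, measured 462, 758 and 472 CPM in HET 1, 3 and 4, against 354, 818 and 675 CPM in WT 1, 3 and 4. All HET values lay inside the WT range. The log2 fold change was -0.13 ± 0.41 (SE; edgeR adjusted p = 0.995), and its sign turned without WT 3 (0.13) and after removal of the trend with length and GC content (0.00702). Exons of all 3 JUN genes overlap annotated exons on the opposite strand, over 877 bases with Gm11175 for Jund, 232 bases with Junos for Jun and 173 bases with Prdx2 for Junb. Sources used here do not state whether counting used strand, so reads from these stretches cannot be assigned with certainty.

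Among the FOS-type genes, Fosl2 had the largest fall of the 9 genes. Fosl2 (ENSMUSG00000029135; chromosome 5, 32135801 to 32157842, plus strand) encodes FRA-2, a FOS protein that lacks the strong activation domain of c-FOS. It measured 249.7, 198 and 162 CPM in HET 1, 3 and 4, against 774, 504 and 537 CPM in WT 1, 3 and 4. Every HET library was below every WT library, and WT 1 was the highest. HET was 33.7% of WT (95% interval 24.9% to 45.4%), a 2.97-fold fall, or -1.57 ± 0.19 in log2 (SE, n = 3 each; edgeR adjusted p = 0.00751). The call was lost without HET 3 (adjusted p = 0.0734) and after removal of the length and GC trend (adjusted p = 0.174). The log2 fold change was -1.56 with that trend removed and between -1.75 and -1.36 when any 1 library was left out.

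Fos (ENSMUSG00000021250; chromosome 12, 85473890 to 85477273, plus strand) encodes c-FOS, the partner through which JUN proteins form the most active AP-1 dimers. It measured 800.3, 1130.3 and 781 CPM in HET 1, 3 and 4, against 1089.5, 1590.4 and 1495 CPM in WT 1, 3 and 4. HET 3 lay just above WT 1, and the groups otherwise did not overlap. HET was 64.9% of WT, or -0.62 ± 0.18 in log2 (SE; unadjusted p = 0.00701; edgeR adjusted p = 0.541), which did not pass over all genes. It passed in DESeq2 (adjusted p = 0.0204) and in edgeR without HET 3 (log2 fold change -0.81, adjusted p = 0.0109). It also passed in edgeR with the library number as a further term (adjusted p = 0.00764, or 0.00241 with the length and GC trend removed as well).

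Fosb (ENSMUSG00000003545; chromosome 7, 19302696 to 19310051, minus strand), whose gene also gives the short, long-lived protein delta-FOSB, measured 509, 1253 and 881 CPM in HET 1, 3 and 4, against 561, 871 and 766 CPM in WT 1, 3 and 4. HET 3 was the highest and HET 1 the lowest of all 6 libraries. The log2 fold change was 0.26 ± 0.40 (SE; edgeR adjusted p = 0.995) and turned to -0.0769 without HET 3. The table counts whole genes, so transcripts for the full and short proteins were not separated.

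Of the small MAF genes, Maff fell, and Mafk was lower in every HET library without passing. Maff (ENSMUSG00000042622; chromosome 15, 79346621 to 79359076, plus strand) is the small MAF gene best known to be induced by cytokines and stress. It measured 31.3, 43.2 and 31.4 CPM in HET 1, 3 and 4, against 90.7, 65.3 and 85.9 CPM in WT 1, 3 and 4. The groups did not overlap, and HET was 43.6% of WT (95% interval 32.9% to 57.8%), or -1.20 ± 0.20 in log2 (SE, n = 3 each; edgeR adjusted p = 0.00511). The call was lost when WT 1 was left out (log2 fold change -1.10, edgeR adjusted p = 0.0626) and when HET 4 was left out (-1.12, adjusted p = 0.0753).

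Mafk (ENSMUSG00000018143; chromosome 5, 139791513 to 139802653, plus strand) encodes the small subunit first described in the erythroid factor NF-E2. It measured 87.4, 92.2 and 74.0 CPM in HET 1, 3 and 4, against 119, 97.1 and 116 CPM in WT 1, 3 and 4. All HET libraries were below all WT libraries, but HET 3 and WT 3 were close. The log2 fold change was -0.39 ± 0.15 (SE; unadjusted p = 0.0166; edgeR adjusted p = 0.745). Mafk shares 169 exonic bases with Tmem184a on the opposite strand.

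Atf3 (ENSMUSG00000026628; chromosome 1, 191170296 to 191218039, minus strand), a stress-induced repressor that can pair with JUN proteins, was the lowest and most variable of the 9 genes. It had 30, 51 and 96 counts in HET 1, 3 and 4, against 64, 175 and 52 counts in WT 1, 3 and 4, or 2.98, 11.1 and 18.7 CPM in HET and 11.5, 32.0 and 12.4 CPM in WT. The HET libraries spanned 6.29-fold and overlapped WT. In log2 the difference was -0.81 ± 0.66 (SE; edgeR adjusted p = 0.995), and it lay between -1.47 without HET 4 and -0.16 without WT 3.

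**Figure D2:**
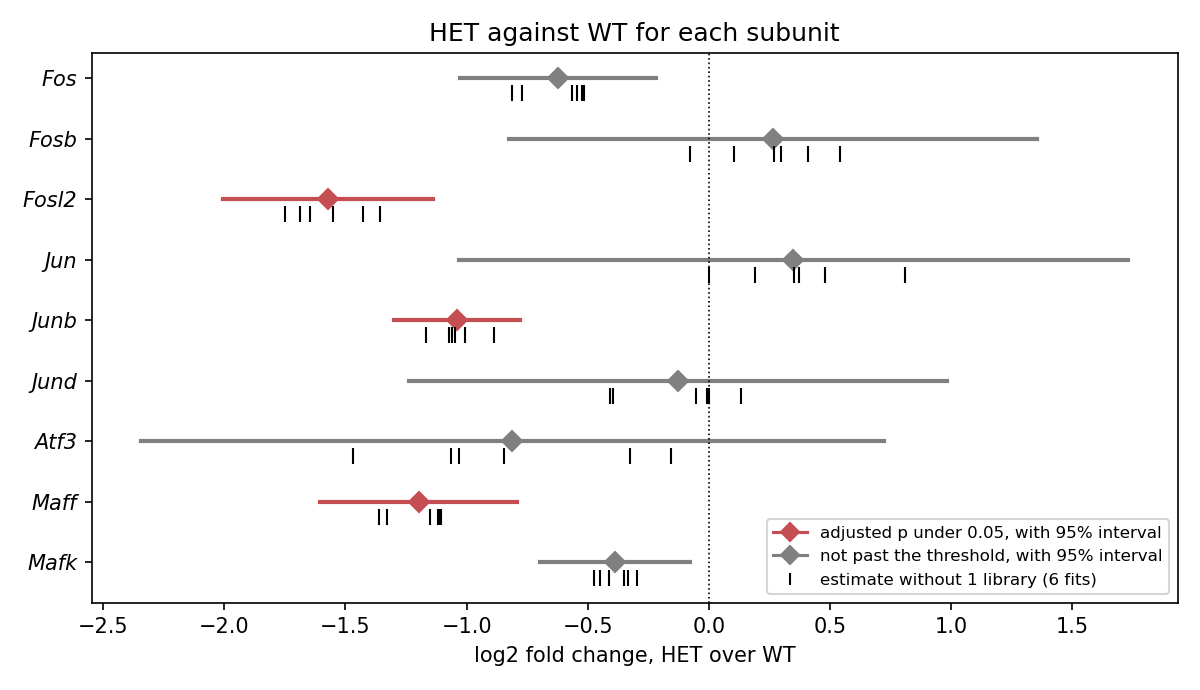
Log2 fold change of HET over WT for each gene from edgeR (diamonds) with its 95% interval (bars), and the estimates when 1 library is left out (ticks). The intervals of Fosl2, Junb and Maff, in red, lie wholly below -0.7, while those of Fosb, Jun, Jund and Atf3 span 0.

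The genes also differed in how they varied among libraries of the same group. In WT, Fos, Fosb, Jun, Jund and Atf3 shared 1 order, highest in WT 3, then WT 4, then WT 1. Fosl2, Maff and Mafk had the opposite order, highest in WT 1 and lowest in WT 3. Junb followed neither and varied least among WT libraries. In HET, 7 of the 9 genes were highest in HET 3, the exceptions being Fosl2, highest in HET 1, and Atf3, highest in HET 4. Fosb, Jun, Jund and Maff ran from HET 3 through HET 4 to HET 1, which for Fosb, Jun and Jund was also the WT order. Fos, Junb and Mafk ran from HET 3 through HET 1 to HET 4. The pooled within-group SD on the log2 scale was 0.16 for Mafk, 0.21 for Junb, 0.26 for Maff, 0.30 for Fos and 0.32 for Fosl2, against 0.52 for Fosb, 0.53 for Jund, 0.66 for Jun and 1.12 for Atf3. Among all genes tested, these SDs ranked from percentile 24.3 for Mafk to percentile 96.6 for Atf3, with Jun at 89.4 and Junb at 39.4.

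**Figure D3:**
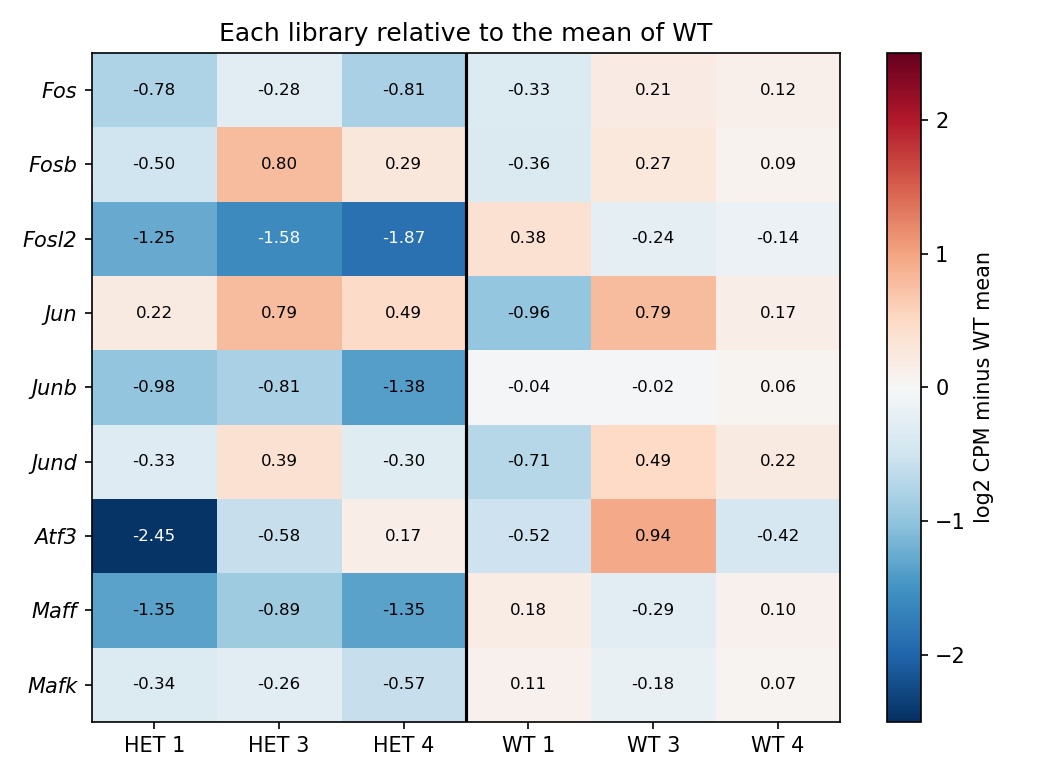
Log2 CPM of each gene in each library minus the gene's mean over the WT libraries, with HET left of the line and WT right of it. Fosl2, Junb and Maff are below -0.8 in every HET library, while the HET and WT points of Jun, Jund and Atf3 overlap.

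Subunits were next compared with each other on CPM per kb of exonic length, a scale on which levels of different genes can be set side by side. In HET the order of mean levels was Jun (664 ± 131 CPM per kb), Fos (384 ± 83.5), Jund (338 ± 101), Junb (153 ± 30.0), Fosb (141 ± 59.6), Mafk (21.7 ± 2.42), Fosl2 (21.0 ± 4.55), Maff (13.6 ± 2.63) and Atf3 (5.08 ± 3.65; SD, n = 3 each). The ranges of Fos and Jund, of Junb and Fosb, and of Mafk and Fosl2 overlapped, and the other neighbours were separate. In WT the order was Fos (592 ± 113 CPM per kb), Jun (521 ± 283), Jund (369 ± 142), Junb (315 ± 11.7), Fosb (117 ± 25.2), Fosl2 (62.5 ± 15.2), Maff (31.1 ± 5.203), Mafk (28.4 ± 3.04) and Atf3 (8.66 ± 5.38; SD, n = 3 each). There the ranges of Fos and Jun, of Jun and Jund, of Jund and Junb, and of Maff and Mafk overlapped. Junb was thus above Fosb in every WT library and in 1 of 3 HET libraries.

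The JUN pool, the summed level per kb of Jun, Junb and Jund, did not separate the groups, while the shares of Junb and Jun in it did. The pool measured 977, 1436 and 1053 CPM per kb in HET 1, 3 and 4, against 757, 1606 and 1253 CPM per kb in WT 1, 3 and 4. Junb held 16.3%, 12.5% and 11.4% of it in HET 1, 3 and 4, against 40.4%, 19.3% and 26.2% in WT 1, 3 and 4. All HET shares lay below all WT shares, with a mean of 13.4% ± 2.57 in HET and 28.7% ± 10.8 in WT (SD, n = 3 each). Jun held 57.6% ± 3.55 in HET and 41.1% ± 9.31 in WT, again without overlap, and Jund 29.0% ± 2.46 in HET and 30.3% ± 2.12 in WT, with overlap. The exact two-sided permutation test gave p = 0.1 for the Junb and Jun shares, the smallest p that 3 against 3 libraries allow, and 0.133 when adjusted over the 8 shares tested. Shares of a pool add up to the whole, so a lower share of a gene raises those of the others, and they are not independent results. The 8 include Maff and Mafk, whose shares mirror each other. The mean difference in the Junb share, -15.2 percentage points, was -9.34 without WT 1.

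The FOS pool measured 448, 702 and 490.0 CPM per kb in HET 1, 3 and 4, against 633, 868 and 814 CPM per kb in WT 1, 3 and 4, with HET 3 above WT 1. Per kb, Fos held most of it in every library, 70.8% ± 4.57 in HET and 76.4% ± 2.80 in WT (SD, n = 3 each), with overlap. Fosb held 18.2%, 28.6% and 28.8% in HET 1, 3 and 4, against 14.2%, 16.1% and 15.1% in WT 1, 3 and 4. Fosl2 held 5.76%, 2.92% and 3.41% in HET 1, 3 and 4, against 12.6%, 6.00% and 6.82% in WT 1, 3 and 4. The groups did not overlap for either share, though HET 1 and WT 3 were close for Fosl2 (exact permutation p = 0.1 for both, adjusted p = 0.133). The mean difference in the Fosl2 share, -4.45 percentage points, was -2.38 without WT 1. These shares rest on the joined exonic lengths, which are longer for Fosl2 and Fosb than for Fos. On CPM without length, Fosb was above Fos in HET 3 and HET 4, and the mean share differed by -11.8 points for Fosl2 and by 16.5 points for Fosb, against 10.1 with length.

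Of the small MAF pool made of Maff and Mafk, Maff held 35.0%, 41.3% and 38.9% in HET 1, 3 and 4, against 53.4%, 50.3% and 52.7% in WT 1, 3 and 4. Mafk was thus the larger part in every HET library, and Maff in every WT library, and the summed level was 35.3 ± 4.66 CPM per kb in HET and 59.5 ± 8.24 CPM per kb in WT (SD, n = 3 each; exact permutation p = 0.1 for the share and for the level). The exonic length of Maff joins all its annotated transcripts, so the share and which of the pair is larger depend on that length. On CPM without length Mafk was above Maff in every HET and every WT library. The mean share of Maff then differed by -12.7 percentage points between HET and WT, against -13.7 with length.

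**Figure D4:**
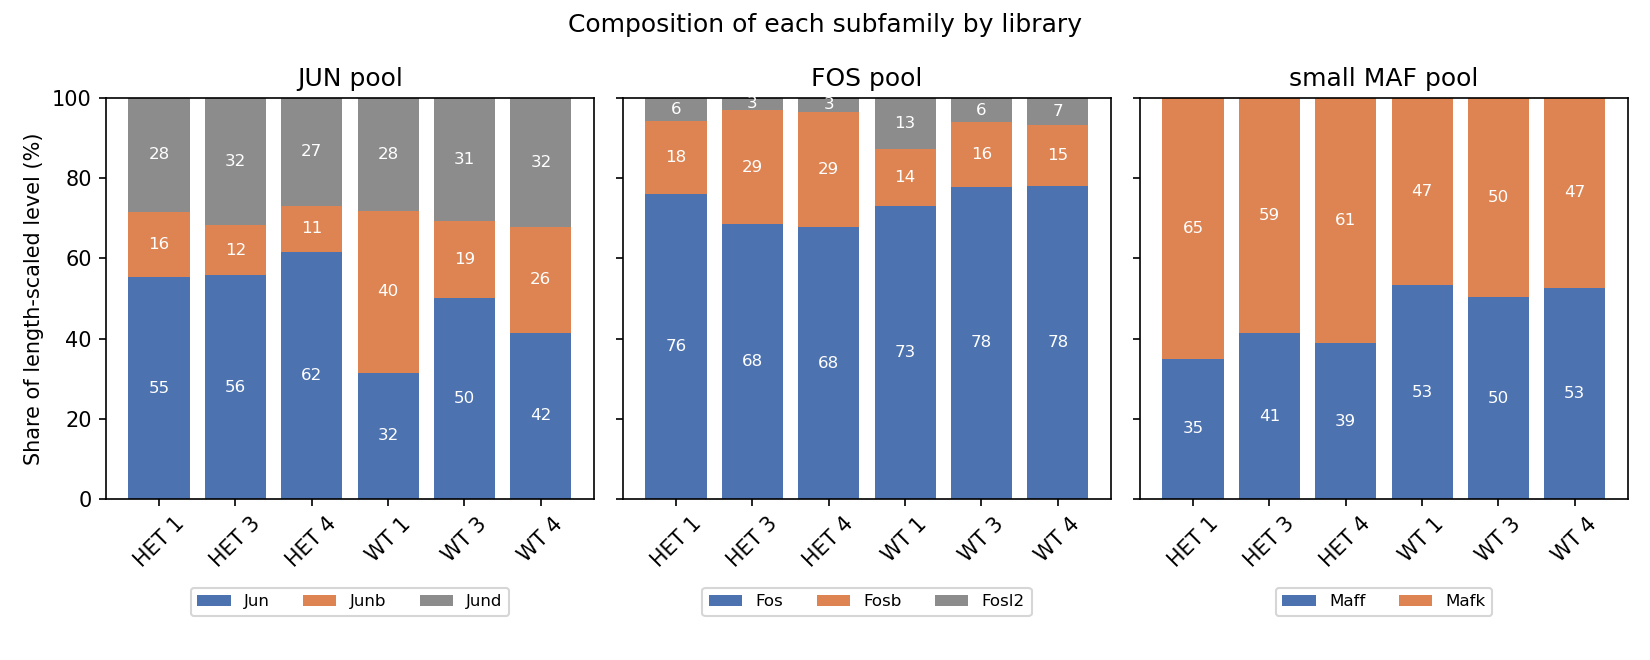
Share of each subfamily's summed length-scaled level held by its members, in percent, in the 3 HET and 3 WT libraries, for the JUN pool (left), the FOS pool (middle) and the small MAF pool of Maff and Mafk (right). Junb holds 11% to 16% of the JUN pool in HET and 19% to 40% in WT, and Maff is under 42% of its pool in HET and over 50% in WT.

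Ratios between members within a library do not depend on how libraries are scaled. The Junb to Jun ratio on the log2 scale was -1.76, -2.16 and -2.43 in HET 1, 3 and 4, against 0.36, -1.37 and -0.67 in WT 1, 3 and 4, a mean difference of -1.56. The HET values lay below all WT values, but WT 1 alone had more Junb than Jun per kb. HET values were likewise all below WT values for Junb to Jund (mean log2 difference -0.98), Fosl2 to Fos (-0.94) and Maff to Mafk (-0.81), and all above them for Fosb to Fos (0.82). Each of these 5 had an exact two-sided permutation p of 0.1, the smallest possible, and an adjusted p of 0.140 over the 7 ratios compared. Junb to Fos (-0.43) and Atf3 to Jun (-1.46) overlapped between the groups (exact permutation p = 0.2). Without WT 1 the difference was -0.64 for Junb to Jund, -0.59 for Fosl2 to Fos and -0.29 for Junb to Fos, and without HET 1 it was -0.84 for Atf3 to Jun.

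Other basic leucine zipper genes related to the family did not pass. Of 7 tested, 0 fell and 0 rose, and their median log2 fold change was -0.13. Fosl1, which encodes FRA-1, was low, at 6.15, 5.67 and 1.75 CPM in HET 1, 3 and 4, against 9.20, 8.05 and 4.53 CPM in WT 1, 3 and 4, and overlapped. Batf, which encodes a JUN partner that competes with FOS, averaged 33.6 ± 3.71 CPM in HET and 40.1 ± 4.91 CPM in WT (SD, n = 3 each; edgeR adjusted p = 0.995).

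Of 6 tested genes for partners of small MAF proteins, 0 passed in either direction, with a median log2 fold change of -0.10. Nfe2, which encodes the large subunit of NF-E2 and is needed for platelet formation, averaged 425 ± 72.2 CPM in HET and 378 ± 33.1 CPM in WT (log2 fold change 0.17 ± 0.12 SE; edgeR adjusted p = 0.995). Keap1, the negative regulator of NRF2, averaged 118 ± 12.9 CPM in HET and 143 ± 30.9 CPM in WT. Bach2, a repressor that pairs with small MAFs, averaged 34.9 ± 7.15 CPM in HET and 40.3 ± 7.83 CPM in WT. Of 16 genes with antioxidant response elements 0 passed, and the median was 0.04. The 3 of smallest p were the glutathione transferase gene Gsta4 (log2 fold change -0.69 ± 0.31 SE), the sulfiredoxin gene Srxn1 (-0.42 ± 0.22) and Gclc (0.19 ± 0.17). Gclc encodes the catalytic subunit of glutamate-cysteine ligase, an enzyme of glutathione synthesis.

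Upstream of AP-1, the kinases of the JNK, ERK and p38 pathways did not pass in either direction (0 of 21, median log2 fold change 0.05). Mapk12, Map2k3 and Rps6ka3 had the smallest p-values, with log2 fold changes of 0.81 ± 0.45, -0.28 ± 0.16 and 0.21 ± 0.14 (SE). Of 11 SRF, TCF and CREB factor genes, 1 fell. Crem, which encodes activators and the inducible repressor ICER of the cAMP response, measured 12.6, 7.41 and 6.24 CPM in HET 1, 3 and 4, against 34.5, 20.7 and 32.9 CPM in WT 1, 3 and 4 (-1.71 ± 0.33 SE in log2, edgeR adjusted p = 0.0190). The groups did not overlap, but the list had 0 calls in limma-voom and when HET 3, HET 4, WT 1 or WT 4 was left out. Crtc3 and Creb1, the coactivator and factor acting at CREB sites, had 0.20 ± 0.14 and 0.13 ± 0.13 (SE).

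Of 15 tested genes known as AP-1 targets in other cells, 0 passed over all genes. Their median log2 fold change was -0.43, against 0.00 over all genes, with a range of -0.51 to -0.25 when single libraries were left out. The count was 4 without HET 1, 2 in DESeq2, and 1 in limma-voom, with upper quartile scaling and without WT 3. It was also 4 with the library number as a further term, with or without removal of the length and GC trend. In 6 of the 15 the HET values were all below the WT values (Plaur, Vegfa, Hbegf, Lmna, Myc and Cdkn1a), as in 5.64% of all genes. The list contains Myc, the gene targeted in HET, and the median of -0.43 is the fold change of Myc itself. The ranked values on either side of it were -0.48 and -0.20. The median was not computed without Myc. Vegfa, which encodes the angiogenic growth factor VEGF-A, measured 51.3, 32.3 and 36.4 CPM in HET 1, 3 and 4, against 138.7, 73.7 and 77.3 CPM in WT 1, 3 and 4 (-1.26 ± 0.25 SE in log2, edgeR adjusted p = 0.0692). Lmna, the gene of the nuclear lamins A and C, averaged 20.7 ± 9.02 CPM in HET and 47.1 ± 8.94 CPM in WT (-1.16 ± 0.27 SE, adjusted p = 0.115). Other genes of the list overlapped, among them the cyclin gene Ccnd1 (-0.05 ± 0.17 SE) and the phosphatase gene Dusp1 (0.20 ± 0.45 SE), whose libraries HET 1 and WT 1 were low, as for Jund and Fosb.

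Immediate early genes can also be induced while tissue is taken apart and sorted, and a list of genes known for that response was examined beside them. Outside the 6 genes it shares with the family, 21 were tested, of which 2 fell (Btg2 and Cebpb) and 0 rose, beside 0.221% of all genes that fell, with a median log2 fold change of -0.20. In 6 of the 21 (Egr2, Nr4a1, Btg2, Socs3, Klf4 and Cebpb) the HET values were all below the WT values, and in 0 all above, beside 5.64% and 4.69% of all genes. With the family's genes included, 3 of 27 fell, or 5 of 29 without HET 1. Their median moved to -0.05 when WT 3 was left out and to -0.39 when WT 1 was. The mean log2 level of that whole list relative to WT was -0.61, -0.30 and -0.58 in HET 1, 3 and 4, against -0.19, 0.15 and 0.04 in WT 1, 3 and 4. The low WT library was WT 1 and the high one WT 3, as for Jun, Fos and Jund. The whole list includes the 6 shared genes of the family, so this likeness can be partly built in. The level was not computed without them. The part of handling in the results was not tested.

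Markers of other marrow cells gave these values beside the falls of Junb, Fosl2 and Maff. Summed over 7 megakaryocyte markers, the level ran from 927 to 1157 CPM in HET and from 787 to 804 CPM in WT, led by Itga2b with 364 to 560.5 CPM in HET and 263 to 316 CPM in WT. Summed over 9 neutrophil and granulocyte markers it ran from 209 to 464 CPM in HET and from 145 to 624 CPM in WT, over 4 monocyte markers from 189.8 to 197 CPM in HET and from 159.5 to 206 CPM in WT, and over 5 erythroid markers from 58.8 to 88.9 CPM in HET and from 57.0 to 86.7 CPM in WT. The 2 T and NK markers tested summed to between 18.5 and 29.6 CPM in HET and between 9.06 and 20.0 CPM in WT, the 2 endothelial and stromal markers to between 162 and 179 CPM in HET and between 118 and 148 CPM in WT, and the 1 B lineage marker tested to between 17.5 and 19.1 CPM in HET and between 13.2 and 23.4 CPM in WT. The 4 markers of CD48+ and multipotent progenitors summed to between 463 and 487 CPM in HET and between 409 and 470.2 CPM in WT. Single markers without overlap that were higher in HET, beside Itga2b and Cd48, were Pecam1 (139.6 to 158 CPM in HET, 91.5 to 119.7 CPM in WT), Cd27 (147 to 181 CPM in HET, 132 to 145 CPM in WT), Itgam (13.1 to 29.0 CPM in HET, 6.95 to 11.9 CPM in WT), Hbb-bt (8.33 to 8.96 CPM in HET, 4.51 to 6.68 CPM in WT) and Cd4 (4.09 to 6.76 CPM in HET, 2.16 to 3.11 CPM in WT). Those lower in HET were Prtn3 (65.3 to 77.9 CPM in HET, 84.9 to 111 CPM in WT) and Car1 (0.872 to 2.14 CPM in HET, 2.16 to 11.9 CPM in WT). Among the stem cell markers, Tek was lower in HET without overlap (74.6 to 80.9 CPM in HET, 87.5 to 97.0 CPM in WT). Of 12 markers of long-term stem cells 0 passed, and their median was -0.07 in log2. The libraries were not alike, and HET 1 was the lowest. The mean log2 level of these markers relative to WT was -0.28, 0.08 and 0.16 in HET 1, 3 and 4, against -0.05, -0.10 and 0.15 in WT 1, 3 and 4. The part of other cell types in the results was not tested.

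The genes whose pattern over the 6 libraries was most like each of 5 members were taken from 7872 genes, so their correlations are the highest of that number and are given as a description. An r over the 6 libraries includes the difference between the groups and does not measure its size. Closest to Junb were Clk1 (r = 0.99), Enox2 (0.99) and Calm2 (0.98). Their log2 fold changes were -0.29, -0.43 and -0.15, against -1.04 for Junb. Closest to Fosl2 were Zfp64 (0.995), the kinase gene Sik1 (0.99), which is itself induced by cAMP, and Slc25a3 (0.99). Closest to Maff were Smad7 (0.99), Clk1 (0.98) and Pld3 (0.98). Of these, Smad7, an inhibitor of TGF-beta signalling, also fell (edgeR adjusted p = 0.00494). Jun had Chrac1 (0.997), Eva1b (0.97) and Atp13a2 (0.97), and Fos had Snrpb, Rpl22 and Eif1 (0.99, 0.99 and 0.98), none of which passed.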

How the data were processed

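RNA-seq counts of 6 libraries (3 HET, 3 WT) were analysed. The authors deposited whole-number read counts per gene. Genes of low count were already absent, since each gene's second highest library was at 1.01 CPM or more. FastQC, STAR 2.5.2b, edgeR, limma and mm10 are named without a role in the submitters' processing notes. Sources used here do not give the counter, annotation or strand setting. The samples' protocol fields describe human biopsies of another study and were left aside.

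Counts were fitted with edgeR 4.0.16 in R 4.3.3 (filterByExpr, TMM, robust quasi-likelihood F test, two-sided, group as the only term), which tested 10869 genes and removed 910. Standard errors come from the F statistic. Exonic lengths and gene positions were taken from GENCODE M21 (GRCm38, equal to mm10), and upstream sequences from RefSeq on GRCm38.p6, which matched all 10 genes. Counts are not collapsed by molecular identifiers. The script was tested on simulated counts. No replicate pair agreed within sampling noise.

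Alternatives were RLE and upper quartile scaling, no filter, a filter of 5 CPM in 3 libraries, DESeq2 1.42.0, limma-voom (limma 3.58.1), a library number block, removal of each library's length and GC trend (splines with 4 degrees of freedom), and leaving out each library. The genes, lists and tests were chosen with earlier results of these data known. All 9 genes with counts are named. Of each related list, the genes that passed and otherwise the 3 of smallest p are named, except 1 gene that is not reported here, and Ccnd1, Dusp1, the genes named for overlap alone and single markers were added after their values were seen. Genes of like pattern were the 3 of highest Pearson r with a mean log2 CPM of at least 4.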

Additional observations from a re-analysis of the deposited data

How the results depend on the processing

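The count of 3 genes of the family lower in HET was 2 with the length and GC trend removed, 4 in DESeq2 and 2 to 3 when single libraries were left out (2 without HET 4 and without WT 1). In each of these 0 rose. Over all genes, the 24 lower and 4 higher became 51 and 8 in DESeq2, while limma-voom called 21 lower and 2 higher. Without 1 library the lower count ranged from 8 to 52 and the higher count from 2 to 16. The highest counts came without HET 1, and the lower count was 8 without HET 4 and 9 without WT 1. No label states whether the library numbers pair the samples. The deviations of same-numbered libraries correlated at 0.10, -0.02 and 0.08, and those of other HET and WT libraries at -0.16 to 0.08. Fosb, Jun and Jund had the same order of libraries in both groups, and the other genes of the family did not. With the replicate block the SE was 0.14 for Jund, against 0.41 without it, and 0.21 for Maff, against 0.20. These values do not settle whether the numbers pair the libraries. With the replicate block, 4 genes of the family fell, Fos among them (adjusted p = 0.00764), 4 of the 15 AP-1 targets fell, and over all genes 44 fell and 5 rose. With the replicate block and the length and GC trend removed, 4 of the family fell, as did 4 of the AP-1 targets, Fos had an adjusted p of 0.00241, and over all genes 54 fell and 7 rose. In that fit Jund was at 0.0305 on the log2 scale, against -0.13 in the fit reported, and it was 0.00702 with the trend alone removed. Leaving out single libraries gave -0.41 to 0.13 for Jund (0.13 without WT 3) and -0.0769 (without HET 3) to 0.54 for Fosb. The cause of these changes was not tested. Ratios and shares kept their direction in each setting tried for them, but most of these settings could not have turned it. The block leaves the mean difference unchanged, and so does CPM without length for a ratio. Where the groups did not overlap, leaving out 1 library cannot turn the sign. With 3 libraries a group, the 95% intervals of Jun, Jund, Fosb and Atf3 include changes of 1.5-fold in either direction.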
